A study of Mus musculus with 12 samples.

Results

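Genes of fibroblasts, their progenitors and the non-collagen extracellular matrix were examined in brown adipose tissue (BAT) of wild-type (WT) and Txnip-deficient (Txnip-/-) mice. The set held 38 genes chosen by symbol, and all 38 were found among the 25124 genes of the expression table, each above 0 in all 12 libraries. It consisted of 7 progenitor markers, 6 proteoglycans, 10 matrix glycoproteins, 7 elastic fibre genes, 3 crosslinking enzymes and 5 TGF-beta genes. After acclimation to thermoneutrality, 16 of the 36 genes tested were higher in Txnip-/- than in WT BAT and none was lower, against 6.49% of all genes tested that were called higher. At room temperature none of 33 passed the limma test, against 0.76%, and 11 of the 33 had an unadjusted p under 0.05, against 16.0% of all genes tested.

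Interscapular BAT was taken from male mice at 10 weeks of age. Mice were acclimated for 1 week to room temperature (RT, 23 °C) or to thermoneutrality (TN, 30 °C), a temperature at which mice need little extra heat production. Both genotypes were studied at both temperatures, and every one of these 4 groups had 3 libraries of polyadenylated RNA. Txnip, thioredoxin-interacting protein, was deleted by an inherited knockout that is not limited to BAT, on a C57B/6J background. The labels name replicates without saying that each was a separate animal, so p-values measure the spread between these libraries.

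Fibroblasts and their progenitors build the meshwork that surrounds adipocytes, vessels and nerves. Proteoglycans of the small leucine-rich family bind collagen fibrils and regulate their spacing, glycoproteins such as fibronectin link cells to the matrix, and elastin on a scaffold of fibrillin microfibrils gives recoil. Lysyl oxidases crosslink collagen and elastin, and TGF-beta is a chief inducer of matrix genes in fibroblasts. In adipose tissue, PDGFRA marks fibroblasts and adipocyte progenitors, and matrix genes are typical of the cells around the adipocytes rather than of brown adipocytes.

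Promoter windows were available in the RefSeq tables (GRCm38.p6, the same assembly as mm10) for 22 of the 38 genes, as 26 windows of 300 bases from 250 before to 50 after a transcription start. Because several of these genes moved together, 4 windows are shown, written 5′ to 3′ on the strand of the gene. Sparc was the most abundant gene of the set, Thbs2 and Tgfbi were among those higher at TN, and Acta2 was not called in any comparison. Motifs found by exact match on either strand stand in capitals. They are CAGACA or TGTCTG (a SMAD element), GGAATG or CATTCC (TEAD), GGGCGG or CCGCCC (GC box) and TATAAA or TTTATA (the TATA box), and none of them overlaps another in these 4 windows.
Sparc: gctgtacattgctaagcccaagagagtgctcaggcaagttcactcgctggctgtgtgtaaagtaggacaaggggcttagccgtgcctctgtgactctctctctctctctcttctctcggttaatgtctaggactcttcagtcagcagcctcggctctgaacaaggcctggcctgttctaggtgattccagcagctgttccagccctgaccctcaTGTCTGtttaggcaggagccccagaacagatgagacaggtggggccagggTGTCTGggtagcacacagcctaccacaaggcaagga
Thbs2: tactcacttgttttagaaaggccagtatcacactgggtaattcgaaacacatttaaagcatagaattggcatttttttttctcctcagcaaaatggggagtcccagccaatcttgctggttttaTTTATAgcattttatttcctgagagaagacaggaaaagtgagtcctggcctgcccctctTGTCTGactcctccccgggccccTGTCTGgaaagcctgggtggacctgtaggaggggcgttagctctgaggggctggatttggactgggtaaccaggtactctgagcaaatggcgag
Tgfbi: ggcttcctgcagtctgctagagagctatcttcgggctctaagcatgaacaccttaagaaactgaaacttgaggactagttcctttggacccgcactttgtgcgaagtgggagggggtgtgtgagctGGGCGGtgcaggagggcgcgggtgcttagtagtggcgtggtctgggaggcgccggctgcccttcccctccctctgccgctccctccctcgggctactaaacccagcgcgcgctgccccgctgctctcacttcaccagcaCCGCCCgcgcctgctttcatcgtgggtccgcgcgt
Acta2: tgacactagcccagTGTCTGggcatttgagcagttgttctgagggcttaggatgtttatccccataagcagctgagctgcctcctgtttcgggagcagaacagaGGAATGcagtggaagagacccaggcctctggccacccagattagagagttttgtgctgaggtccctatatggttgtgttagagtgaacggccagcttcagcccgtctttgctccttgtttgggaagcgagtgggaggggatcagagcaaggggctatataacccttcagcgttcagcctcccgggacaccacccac
The windows lie at chr11:55420031-55420330, chr17:14694213-14694512 and chr19:34255324-34255623 on the minus strand and at chr13:56609336-56609635 on the plus strand. The SMAD element was present in 30.8% of the 26 windows of the set and in 21% of all 32851 windows, and the genes that held it were Acta2, Fbln1, Fbln5, Sparc, Thbs2 and Tnc. The TATA motif was present in 23.1% against 13.6%, the GC box in 42.3% against 35.7%, and the TEAD element in 11.5% against 14.7%. The 2 windows of Tnc overlap, as do those of Fbln1, so that a match there can count for both. By gene, the SMAD element was found in 6 of the 22, the TATA motif in 5 and the GC box in 10. An AP-1 element, TGACTCA or TGAGTCA, was found in 3.85% of the windows of the set, those of Tnxb, against 5.2% of all windows, and a CArG box in its strict form, with 6 bases that are each A or T between a pair of C and a pair of G, was found in none of the 26 against 1.63%. Runs that depart from this pattern by 1 base were present in 23.1% of the windows of the set against 19.9% of all windows, and the Acta2 window shown holds 2 of them, which are not in capitals. The motifs were chosen after expression values had been seen, and a match is a description of letters, not a binding site.

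Txnip was measured first as a check of the genotype labels. Its level in TPM (transcript abundance corrected for transcript length and library depth) was 564, 581 and 694 in RT WT and 24.8, 26.9 and 35.4 in RT Txnip-/-, and 1238, 1083 and 1072 in TN WT and 11, 14.4 and 10.5 in TN Txnip-/-. Every Txnip-/- library was below every WT library. Library depth ran from 3.0e+07 to 4.7e+07 reads, and the reads behind a single gene cannot be read from TPM. Markers of brown adipocytes were present throughout, with 17944 to 30653 TPM summed over 9 markers in a library. Fabp4 alone gave 12336 to 18171 TPM of this sum, and Ucp1 ranged from 154 to 4366 TPM. The sum by itself therefore does not establish the tissue label. Some libraries stood apart from the others of their group across the set: RT Txnip-/- replicate 2 was the lowest of its 3 libraries for 25 of the 38 genes, TN WT replicate 3 the lowest for 22, and TN Txnip-/- replicate 2 the highest for 22. TN Txnip-/- replicate 2 also had the highest macrophage sum, 709 TPM, and skeletal muscle markers summed to 14.7 TPM in it and 16.2 TPM in TN WT replicate 2, against 1.4 to 2.05 TPM in the other TN libraries.

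Across the 4 groups the set was lowest in RT WT and highest in TN Txnip-/-. Averaged over all 38 genes, log2(TPM + 1) at RT was 3.36 ± 0.05 (SD, n = 3) for WT and 3.52 ± 0.09 for Txnip-/-, and at TN it was 3.74 ± 0.08 for WT and 4.19 ± 0.10 for Txnip-/-. Of the 34 genes with a mean of at least 1 TPM over the 12 libraries, 30 had their highest group mean in TN Txnip-/-, or 88.2%, against 39.7% of all 12486 genes tested. Exceptions were Pi16, highest in TN WT, Eln, highest in RT Txnip-/-, and Thbs1 and Ccn2, highest in RT WT.

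The subgroups did not all take the groups in the same order. Progenitor markers had mean levels at RT of 2.97 ± 0.05 for WT and 3.11 ± 0.04 for Txnip-/-, and at TN of 3.64 ± 0.09 for WT and 3.96 ± 0.02 for Txnip-/- (log2(TPM + 1), SD, n = 3), and no library of one group overlapped another. Proteoglycans followed the same order, at 3.22 ± 0.17, 3.42 ± 0.09, 3.80 ± 0.10 and 4.32 ± 0.08, with overlap between the 2 RT groups only. Matrix glycoproteins lay at 4.47 ± 0.05, 4.51 ± 0.14, 4.82 ± 0.08 and 5.25 ± 0.09, and the RT groups again overlapped. Elastic fibre genes departed from this order: RT Txnip-/- at 2.51 ± 0.05 was not below TN WT at 2.41 ± 0.12, and these neighbours overlapped, while RT WT stood lowest at 2.18 ± 0.03 and TN Txnip-/- highest at 3.0 ± 0.21. Crosslinking enzymes overlapped in 3 groups, at 2.72 ± 0.09, 2.78 ± 0.14 and 2.77 ± 0.17, and lay apart at 3.34 ± 0.08 in TN Txnip-/-. TGF-beta genes were at 3.94 ± 0.01, 4.07 ± 0.14, 4.05 ± 0.08 and 4.43 ± 0.12, with RT Txnip-/- and TN WT overlapping. These means are a description and carry no test.

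**Figure D1:**
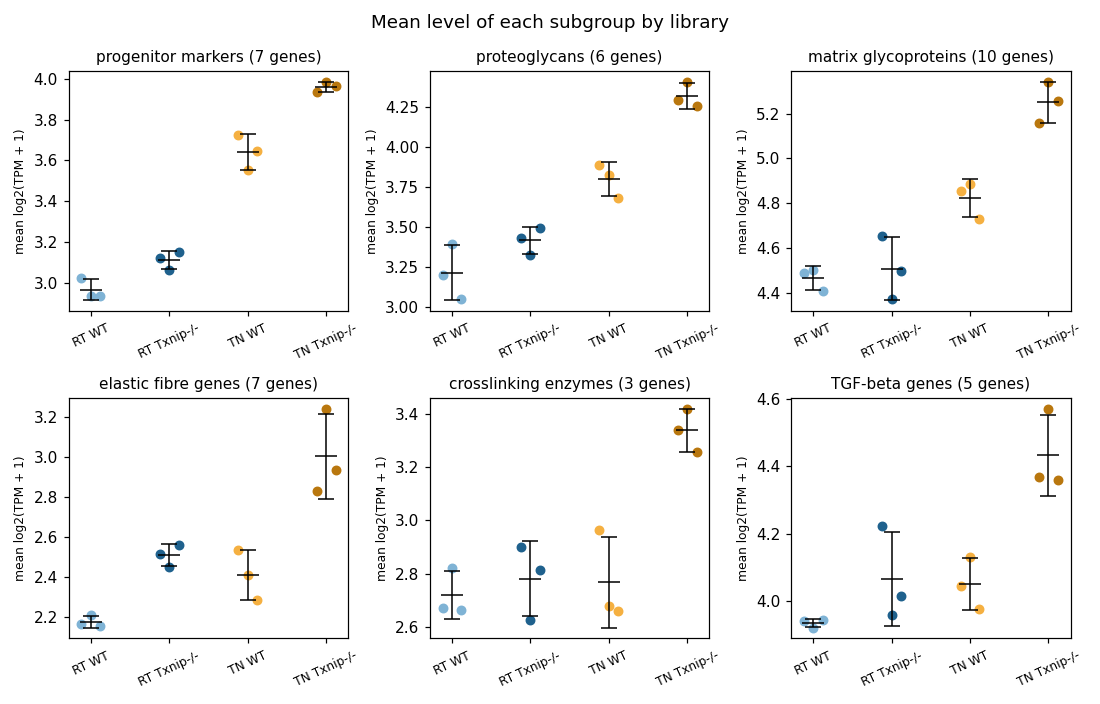
Mean log2(TPM + 1) of each subgroup in each of the 12 libraries (points), by group, with the group mean and SD (bars, n = 3); the vertical axes differ between panels and do not start at 0. In every panel the 3 TN Txnip-/- libraries lie above all other libraries, and the crosslinking enzymes show no separation among the other 3 groups.

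The comparison of TN Txnip-/- with TN WT asks which genes depend on Txnip when little heat production is required. Of 36 genes tested, 16 were higher in Txnip-/- and none was lower, where 6.49% of all 12891 genes tested were called higher. The 16 were Pdgfra, Cd34 and Thy1 among the progenitor markers, Dcn, Lum and Bgn among the proteoglycans, Sparc, Postn, Thbs2 and Igfbp7 among the glycoproteins, Fbln5, Eln and Mfap5 among the elastic fibre genes, Loxl1 and Loxl2 among the crosslinking enzymes, and Tgfbi among the TGF-beta genes. Their group means were higher by 1.31-fold for Cd34 to 2.26-fold for Mfap5. The median log2 fold change of the 36 was 0.43, against 0.01 over all genes tested. Positive values were found for 35 of 36, against 6685 of all 12891 genes tested. All 3 Txnip-/- libraries lay above all 3 WT libraries for 23 of the 36, against 17.7% of all genes tested.

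A gene counts as called here where both its fold change and its adjusted p passed the limits that the study used, with values from limma on log2(TPM + 1) with Benjamini-Hochberg adjustment over all genes tested, and fold changes on this scale understate those of low genes. Changes are ranked on this scale, and by the ratio of group means Mfap4 (2.55-fold, not called) came before Mfap5 (2.26-fold) and Thbs2 (2.12-fold) before Fn1 (1.76-fold, not called). Without TN Txnip-/- replicate 1 the count fell from 16 to 10 and the share called higher of all genes tested to 2.79%, and 8 genes (Pdgfra, Thy1, Lum, Bgn, Postn, Fbln5, Mfap5 and Tgfbi) were called with any one library left out. Without TN WT replicate 3 the count was 11, and without TN WT replicate 2 or TN Txnip-/- replicate 2 it was 12, in the former case with Pi16 lower. The shares called higher of all genes tested in these fits were 4.17%, 4.93% and 2.8%, in the same order. Dpp4 and Vcan, at 0.174 to 1.29 TPM in all libraries, were below the limit of a mean of 1 TPM and were not tested.

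**Figure D2:**
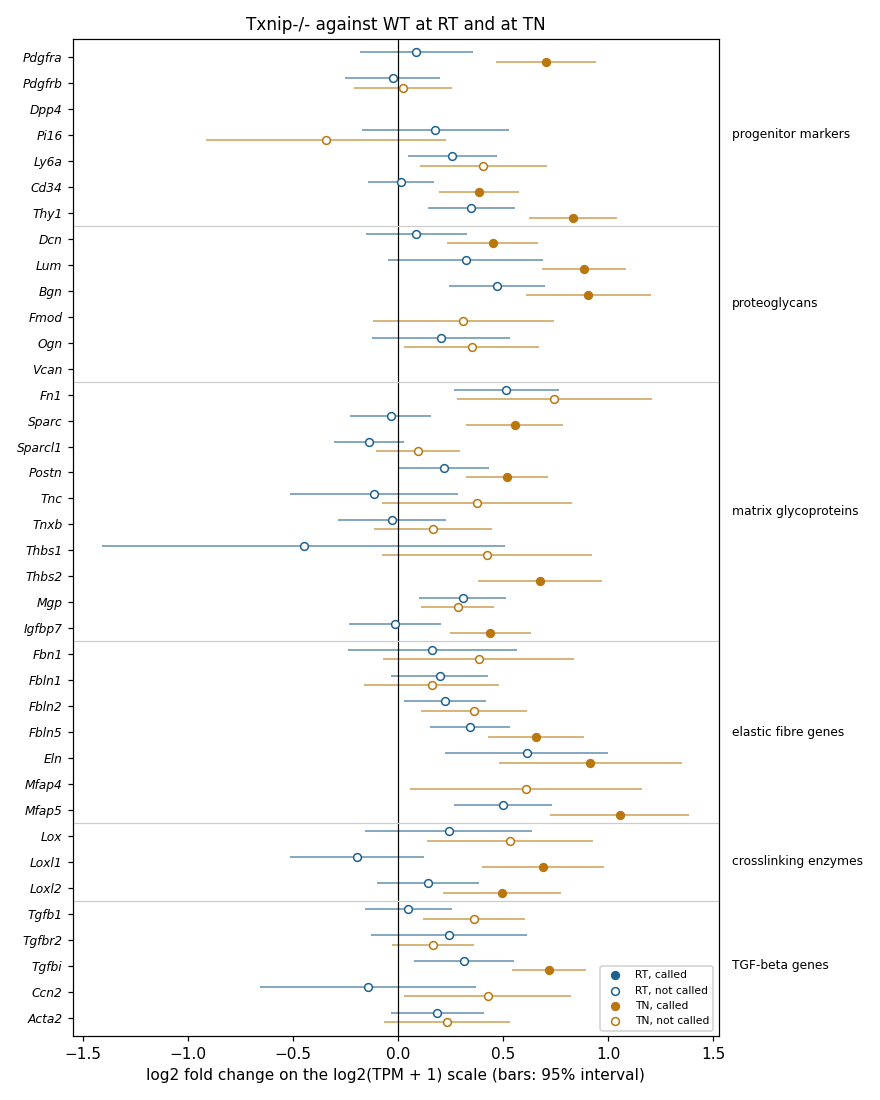
Log2 fold change of Txnip-/- over WT for each gene, on the log2(TPM + 1) scale, at RT (blue) and at TN (brown), with 95% intervals; filled points were called, open points were not, and genes below the limit of a mean of 1 TPM have no point. At TN 35 of 36 genes lie to the right of 0, and at RT no point is filled.

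Other cell types moved in the same comparison. All 10 macrophage markers were higher in TN Txnip-/-, with summed TPM of 498 to 709 against 175 to 307 in TN WT, as were all 6 fibroblast markers, 663 to 715 against 255 to 351. The fibroblast list is made up of collagen and matrix genes beside Pdgfra, which it shares with the set, and includes Col3a1 (log2 fold change 1.35 ± 0.13 (SE), adjusted p = 0.00297). Of the 7 B and T lymphocyte markers tested 3 were higher, and the sum over all 10 was 27.3 to 33.7 against 7.57 to 14.4. Of 9 brown adipocyte markers 5 were lower, among them Ucp1 (log2 fold change -1.72 ± 0.31 (SE), adjusted p = 0.0151), and the sum was 17944 to 19781 against 21024 to 22693. None of 7 endothelial markers was called, with sums of 467 to 519.6 against 430.2 to 514. Of 9 pericyte and smooth muscle markers 1, Des, was lower, with sums of 338 to 355 against 345 to 377. None of 6 Schwann cell markers, 2 skeletal muscle markers or 1 mesothelial marker tested was called, with sums over the whole lists of 103 to 155 against 83.9 to 93.2, 1.41 to 14.7 against 1.4 to 16.2 and 2.47 to 3.59 against 2.62 to 3.2. None of these markers was at 0 in all 3 libraries of either TN group. Of all genes tested at TN, 6.49% were called higher and 2.17% lower. In bulk tissue, more cells of a type and more RNA per cell cannot be told apart, and the part of cell composition in the results was not tested.

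**Figure D3:**
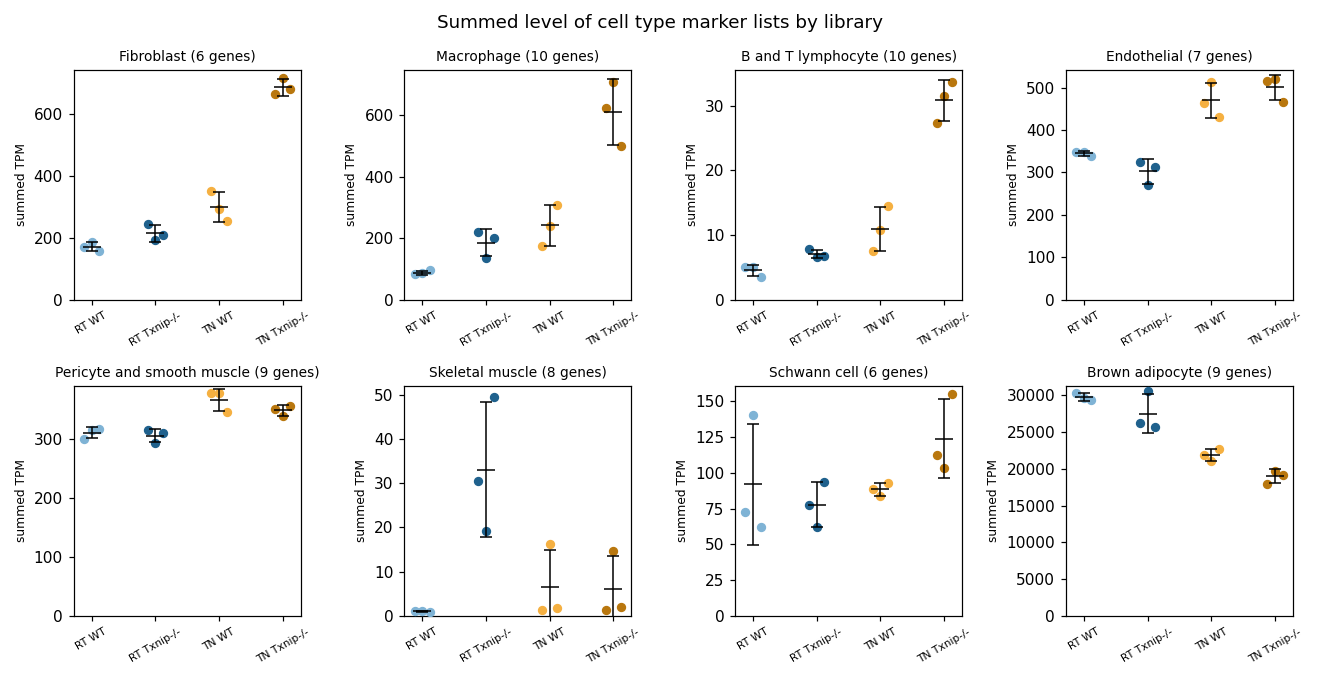
Summed TPM of 8 cell type marker lists in each library (points), by group, with the group mean and SD (bars, n = 3; bars that reach below 0 are cut at the axis). Fibroblast and macrophage sums in the 3 TN Txnip-/- libraries lie above every other library, and skeletal muscle sums are higher in the 3 RT Txnip-/- libraries than in any other.

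Among the progenitor markers, 3 of 6 tested were higher in TN Txnip-/-. Pdgfra, the alpha receptor for platelet-derived growth factor (NM_011058, chr5:75152251-75198206), was at 5.47, 4.56 and 4.15 TPM in TN WT and 7.7, 8.43 and 8.75 TPM in TN Txnip-/-. Its groups did not overlap (log2 fold change 0.70 ± 0.10 (SE), adjusted p = 0.00865), whereas at RT the values 3.15, 3.02 and 2.59 in WT and 3.37, 2.68 and 3.46 in Txnip-/- did. Thy1, a glycolipid-anchored surface protein of fibroblasts and T cells (chr9:44043384-44048579), was at 5.19, 5.57 and 5.99 TPM in TN WT and 10.2, 12 and 10 TPM in TN Txnip-/-. It had the largest change of the subgroup (log2 fold change 0.83 ± 0.09 (SE), adjusted p = 0.00383). At RT Thy1 was at 3.15, 3.03 and 3.09 TPM in WT and 4.42, 3.84 and 4.38 TPM in Txnip-/-, also without overlap, but did not pass the test (adjusted p = 0.119). Cd34, a sialomucin of progenitor and endothelial cells (chr1:194938821-194961292), was at 43, 47.3 and 38.9 TPM in TN WT and 58.3, 54.2 and 56.5 TPM in TN Txnip-/-, and at 15.9, 15.8 and 14.7 and 16.1, 15.6 and 15.1 TPM in the RT groups. The TN groups did not overlap and the RT groups did. The Cd34 difference at TN was the smallest called (log2 fold change 0.38 ± 0.08 (SE), adjusted p = 0.0273) and held only in the fit without TN WT replicate 2, with an adjusted p of up to 0.104 when TN Txnip-/- replicate 1 was left out.

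Ly6a, which encodes the surface antigen SCA-1 (chr15:74994877-74998031), was the most abundant progenitor marker. It was at 70.5, 85.4 and 91.8 TPM in TN WT and 113, 125 and 92.5 TPM in TN Txnip-/-, and at 60.9, 68.3 and 71.8 and 73.6, 78.5 and 88.7 TPM in RT WT and RT Txnip-/-. The genotypes did not overlap at either temperature, yet neither difference was called (TN log2 fold change 0.41 ± 0.13 (SE), adjusted p = 0.0975), except at TN without TN Txnip-/- replicate 3, where adjusted p was 0.0464. Pi16, a marker of early fibroblast progenitors, was singled out after its values were seen, as the one gene with a negative value at TN (log2 fold change -0.34 ± 0.25 (SE), adjusted p = 0.447). Its TN WT libraries were spread over 11.4, 4.79 and 8.75 TPM and enclosed the 5.17, 6.22 and 6.68 TPM of TN Txnip-/-, and without TN WT replicate 2 it was called lower (log2 fold change -0.65, adjusted p = 0.0438).

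Among the proteoglycans, 3 of 5 tested were higher in TN Txnip-/-, and all 5 belong to the small leucine-rich family. Biglycan, Bgn (chrX:73483601-73495936), was at 40.5, 47.7 and 40.3 TPM in TN WT and 73.7, 99 and 72.6 TPM in TN Txnip-/-. The groups did not overlap (log2 fold change 0.91 ± 0.13 (SE), adjusted p = 0.00813). At RT it was at 25.3, 27.6 and 29.2 TPM in WT and 37.2, 34.6 and 43.4 TPM in Txnip-/-, again without overlap, and was not called (adjusted p = 0.0689). Lumican, Lum (chr10:97565501-97572703), was at 27.4, 27 and 25.2 TPM in TN WT and 56.3, 46.6 and 47.4 TPM in TN Txnip-/- (log2 fold change 0.89 ± 0.09 (SE), adjusted p = 0.00302). At RT its values were 12.7, 16.8 and 10.1 TPM in WT and 16.7, 16.2 and 16.4 TPM in Txnip-/-, which overlapped. Decorin, Dcn (chr10:97482331-97518163), the most abundant proteoglycan and the neighbour of Lum with 47338 bases between them, was at 166, 142 and 131 TPM in TN WT and 202, 189 and 208 TPM in TN Txnip-/-. Its TN groups did not overlap (log2 fold change 0.45 ± 0.09 (SE), adjusted p = 0.0254), and the RT values 88.1, 104 and 81.3 in WT and 96.1, 88.9 and 105 in Txnip-/- did. The Dcn call held only in the fit without TN WT replicate 1, and without TN Txnip-/- replicate 1 its adjusted p was 0.0904. Ogn, which encodes osteoglycin, had, on the log2(TPM + 1) scale, the largest change of the proteoglycans that were tested and not called (log2 fold change 0.35 ± 0.14 (SE), adjusted p = 0.163).

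Among the matrix glycoproteins, 4 of 10 were higher in TN Txnip-/-, and all 10 had positive values. Sparc, a collagen-binding matricellular protein (chr11:55394159-55420080) whose promoter window is given above, was at 496, 565 and 445 TPM in TN WT and 709, 788 and 709.8 TPM in TN Txnip-/-. The groups were well apart (log2 fold change 0.56 ± 0.10 (SE), adjusted p = 0.0153), although the call was lost without TN Txnip-/- replicate 2 (adjusted p = 0.0584) and without TN Txnip-/- replicate 1. At RT Sparc was at 417, 441 and 487 TPM in WT and 431, 404 and 476 TPM in Txnip-/-, and the genotypes overlapped. Periostin, Postn (chr3:54361107-54391041), a matricellular protein of remodelling tissue, was at 63, 50.8 and 54.8 TPM in TN WT and 81.7, 79.5 and 80.8 TPM in TN Txnip-/- (log2 fold change 0.52 ± 0.08 (SE), adjusted p = 0.0115). Its 3 TN Txnip-/- libraries were close together. At RT it was at 57.2, 58.7 and 57.3 TPM in WT and 59.1, 67.5 and 76.5 TPM in Txnip-/-, without overlap but not called (adjusted p = 0.306).

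Thrombospondin 2, Thbs2 (chr17:14665500-14694262), an inhibitor of angiogenesis, was low. It was at 1.28, 0.989 and 1.24 TPM in TN WT and 2.54, 2.03 and 2.87 TPM in TN Txnip-/- (log2 fold change 0.68 ± 0.13 (SE), adjusted p = 0.0188), and at 0.628, 0.494 and 0.566 and 0.763, 0.608 and 0.857 TPM in the RT groups, where it was below the limit of a mean of 1 TPM. Its call at TN was lost without TN WT replicate 2 and without TN Txnip-/- replicate 1 (adjusted p = 0.0746). Igfbp7, a secreted binding protein for insulin-like growth factors (chr5:77349240-77408045), was at 159, 162 and 161 TPM in TN WT and 211, 246 and 201 TPM in TN Txnip-/- (log2 fold change 0.44 ± 0.08 (SE), adjusted p = 0.0195). At RT the values 98.4, 115 and 105 in WT and 116, 92.9 and 107 in Txnip-/- overlapped. The Igfbp7 call held without TN Txnip-/- replicate 2 or 3 and was lost in the other 4 fits with a library left out, reaching an adjusted p of 0.0603 without TN Txnip-/- replicate 1. Fn1, fibronectin, had the largest change of the subgroup on the log2(TPM + 1) scale and was not called (log2 fold change 0.74 ± 0.20 (SE), adjusted p = 0.0576), except without TN WT replicate 1, where adjusted p was 0.0313.

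Among the elastic fibre genes, 3 of 7 were higher in TN Txnip-/-, and they included the largest change of the whole set on the log2(TPM + 1) scale. Mfap5, a microfibril glycoprotein (chr6:122513584-122529287), was at 6.49, 4.35 and 5.66 TPM in TN WT and 11.9, 14.5 and 10.9 TPM in TN Txnip-/- (log2 fold change 1.05 ± 0.14 (SE), adjusted p = 0.00752). At RT it was at 3.5, 3.6 and 3.9 TPM in WT and 6.2, 4.96 and 5.71 TPM in Txnip-/-, without overlap at either temperature, and the RT difference missed the threshold (adjusted p = 0.0644). Elastin, Eln (chr5:134702595-134747323), was at 6.03, 6.08 and 4.41 TPM in TN WT and 8.79, 15.2 and 10.4 TPM in TN Txnip-/- (log2 fold change 0.91 ± 0.19 (SE), adjusted p = 0.0249). At RT it was at 6.34, 8.31 and 9.66 TPM in WT and 11.7, 11.4 and 15.6 TPM in Txnip-/-. The genotypes did not overlap at either temperature, and the TN call was lost without TN WT replicate 3 (adjusted p = 0.0774) and without TN WT replicate 1.

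Fibulin 5, Fbln5 (chr12:101746565-101819119), which guides elastin onto microfibrils, was at 4.12, 4.37 and 3.55 TPM in TN WT and 6.34, 7.57 and 6.81 TPM in TN Txnip-/- (log2 fold change 0.66 ± 0.10 (SE), adjusted p = 0.00923). Its RT values were 3.54, 3.87 and 3.71 TPM in WT and 4.95, 4.82 and 5.16 TPM in Txnip-/-, without overlap and not called (adjusted p = 0.0987). Fbln2, fibulin 2 (chr6:91212764-91272540), was the most abundant elastic fibre gene, at 15.8, 18 and 13.8 TPM in TN WT and 18.6, 22.5 and 20.9 TPM in TN Txnip-/-, and at 11.6, 11.1 and 10.5 and 13.8, 11.9 and 13.7 TPM in the RT groups. Neither of its differences was called (TN log2 fold change 0.36 ± 0.11 (SE), adjusted p = 0.0797), though no libraries overlapped. Fbn1, which encodes fibrillin 1, was called only without TN WT replicate 1 (adjusted p = 0.0322). Mfap4 had the largest change of those not called (log2 fold change 0.61 ± 0.24 (SE), adjusted p = 0.158), and its TN Txnip-/- libraries differed widely, at 0.874, 2.47 and 1.11 TPM.

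Among the crosslinking enzymes, Loxl1 and Loxl2 were higher in TN Txnip-/- and Lox was not called. Loxl1, a lysyl oxidase that acts on elastin (chr9:58287723-58313212), was at 6.46, 5.98 and 7.21 TPM in TN WT and 10.5, 13.6 and 9.69 TPM in TN Txnip-/- (log2 fold change 0.69 ± 0.13 (SE), adjusted p = 0.0165). The call was lost without TN WT replicate 2 (adjusted p = 0.0503). At RT Loxl1 was at 8.9, 9.98 and 7.1 TPM in WT and 6.73, 6.94 and 8.53 TPM in Txnip-/-, which overlapped. Loxl2, which crosslinks collagen (chr14:69609476-69695834), was at 3.88, 3.15 and 2.68 TPM in TN WT and 4.43, 5.29 and 5.1 TPM in TN Txnip-/-, without overlap (log2 fold change 0.49 ± 0.12 (SE), adjusted p = 0.0442), and at 2.08, 2.19 and 1.98 and 2.77, 2.26 and 2.21 TPM in the RT groups. The Loxl2 call held only without TN WT replicate 1 and reached an adjusted p of 0.145 without TN Txnip-/- replicate 2. Lox, lysyl oxidase, was the most abundant of the 3 genes, at 12, 8.04 and 7.37 TPM in TN WT and 15.7, 12.3 and 12.4 TPM in TN Txnip-/- (log2 fold change 0.53 ± 0.17 (SE), adjusted p = 0.0969), and was called without TN WT replicate 1 (adjusted p = 0.0198). In RT WT and RT Txnip-/- it was at 7.43, 9.09 and 9.5 and 13.3, 8.09 and 10.4 TPM, which overlapped.

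Among the TGF-beta genes, 1 of 5 was called. Tgfbi, a secreted adhesion protein induced by TGF-beta (chr13:56609586-56639359), was at 12.9, 12.9 and 11.5 TPM in TN WT and 20.7, 20.2 and 22.2 TPM in TN Txnip-/- (log2 fold change 0.72 ± 0.08 (SE), adjusted p = 0.00351). At RT it was at 8.21, 8.4 and 8.51 TPM in WT and 10.6, 9.29 and 12.2 TPM in Txnip-/-, without overlap at either temperature and not called at RT (adjusted p = 0.198). Tgfbr2, the type II receptor (chr9:116087695-116175363) and the most abundant of the 5, was at 92, 85.5 and 78.4 TPM in TN WT and 104, 90.5 and 92.9 TPM in TN Txnip-/-, and at 53.7, 55.7 and 56.6 and 85.5, 52.5 and 63.1 TPM in the RT groups. Its genotypes overlapped at both temperatures, and RT Txnip-/- replicate 1 stood high. Ccn2, connective tissue growth factor and a target of TGF-beta and YAP, had the largest change of those not called (log2 fold change 0.43 ± 0.17 (SE), adjusted p = 0.169). The ligand Tgfb1 and the contractile gene Acta2, smooth muscle actin, were not called either.

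**Figure D4:**
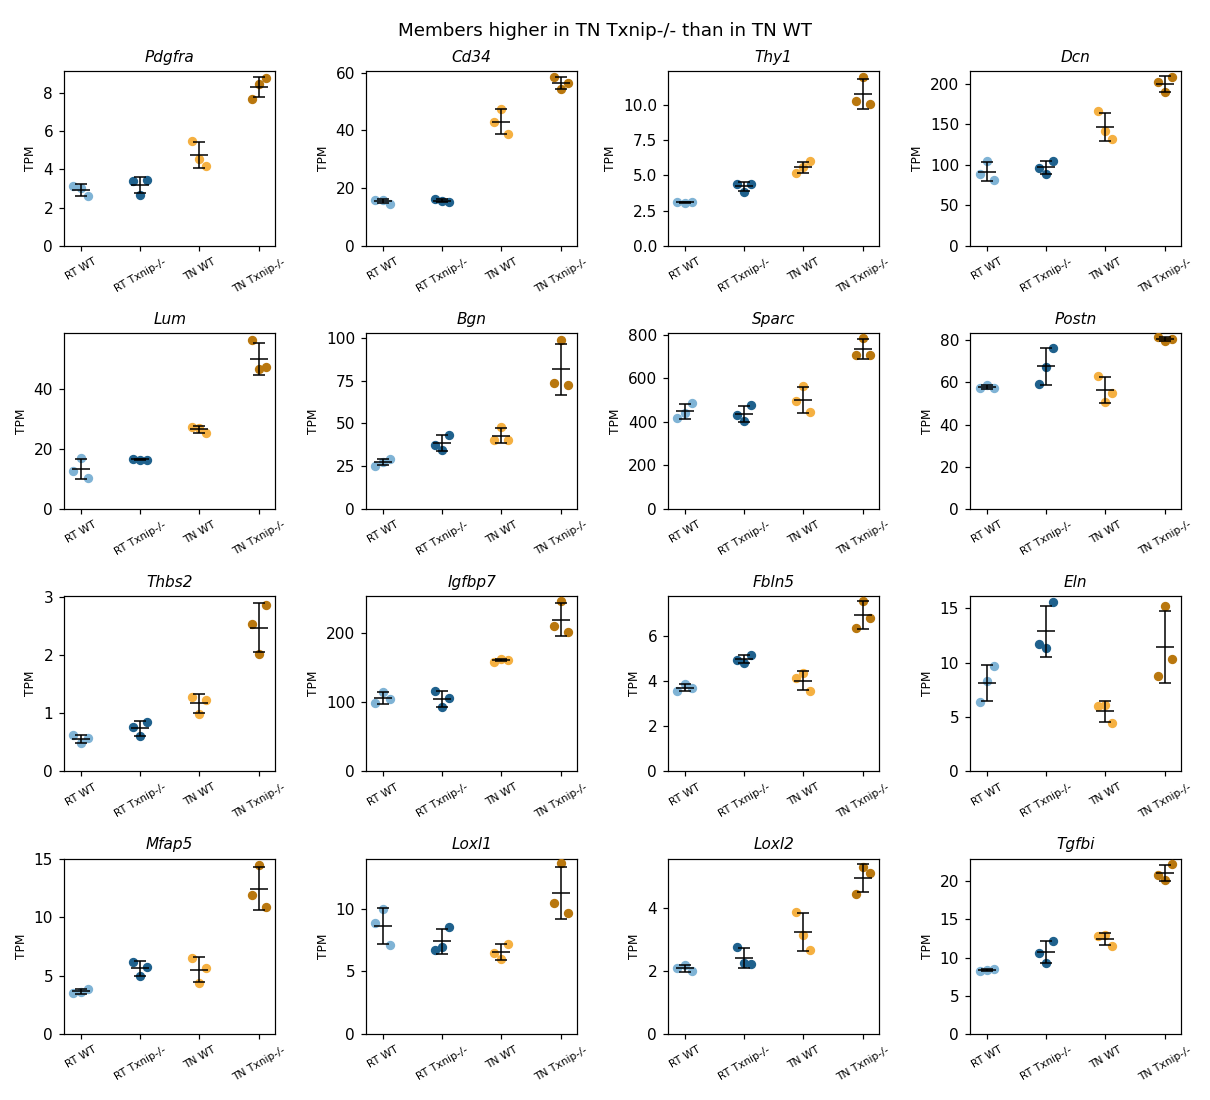
TPM of the 16 genes called higher in TN Txnip-/-, in each library (points), by group, with the group mean and SD (bars, n = 3); all axes start at 0. In each panel the 3 TN Txnip-/- libraries lie above the 3 TN WT libraries, and only for Eln do the RT Txnip-/- libraries reach as high as those of TN Txnip-/-.

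The same comparison at RT asks what Txnip deficiency does in mice at ordinary housing temperature. None of the 33 genes tested was called by limma, against 0.76% of all 11980 genes tested that were called higher, and the 11 with an unadjusted p under 0.05 stood against 16.0% of all genes. With the log-scale values that the authors deposited in place of TPM, 1 gene, Fn1, was called higher, against 67 of all 11980 genes. The median log2 fold change was 0.19, against 0.03 over all genes tested. Of the 33 genes, 24 were positive, against 7089 of all 11980 genes tested. In 13 of the 33 all Txnip-/- libraries lay above all WT libraries, against 15.1% of all genes tested, and in none did they all lie below. By subgroup, the median was 0.28 for elastic fibre genes, 0.26 for proteoglycans, 0.19 for TGF-beta genes, 0.14 for crosslinking enzymes, 0.13 for progenitor markers and -0.03 for matrix glycoproteins. All 6 elastic fibre genes tested were positive, 5 of the 6 without overlap. All 4 proteoglycans tested were positive too, 1 of the 4 without overlap, while 3 of 9 glycoproteins were positive. Dpp4, Fmod, Vcan, Thbs2 and Mfap4 were below the limit of a mean of 1 TPM at RT.

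Skeletal muscle markers were higher in RT Txnip-/- than in RT WT, all 6 of those tested, with sums over the 8 markers of 19.2 to 49.4 against 0.987 to 1.2 TPM. At RT 3 of 9 macrophage markers and 1 of 3 lymphocyte markers were also higher, with sums of 135 to 219 against 82 to 95.4 TPM and 6.62 to 7.84 against 3.54 to 5.09 TPM. None of the 6 fibroblast markers was called at RT, with sums of 192 to 245 against 158 to 185 TPM. One of 9 brown adipocyte markers, Cox7a1, and one of 9 pericyte and smooth muscle markers, Cspg4, were lower, and no endothelial, Schwann cell or mesothelial marker was called. Of all 11980 genes tested at RT, 91 were called higher and 87 lower. The part of these cell types in the RT values was not tested.

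Warmth itself was compared within each genotype. In WT BAT, 22 of 34 genes were higher at TN than at RT and 1 was lower, against 31.4% and 6.39% of all 12486 genes tested. In Txnip-/- BAT, 26 were higher and none was lower, against 30.9% and 8.27% of all genes. All 22 genes higher in WT were also higher in Txnip-/-, where they made up 22 of the 26. The further 4 were Ly6a, Sparc, Fbln5 and Loxl1. The median log2 fold change was 0.50 in WT and 0.79 in Txnip-/-, against 0.18 and 0.15 over all genes tested.

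On the log2(TPM + 1) scale Cd34 had the largest change with temperature in both genotypes, from 15.4 ± 0.67 (SD, n = 3) to 43 ± 4.2 TPM in WT (log2 fold change 1.42 ± 0.07 (SE), adjusted p = 3.35e-06) and from 15.6 ± 0.528 to 56.3 ± 2.07 TPM in Txnip-/- (log2 fold change 1.79 ± 0.07 (SE), adjusted p = 2.38e-07). Lum had the next largest increase in both, with a log2 fold change of 0.98 ± 0.14 (SE) in WT and 1.54 ± 0.14 (SE) in Txnip-/-. All 4 proteoglycans tested were higher in both genotypes, as were Pdgfra, Pdgfrb and Thy1. Sparc was called higher in Txnip-/- (log2 fold change 0.75 ± 0.10 (SE), adjusted p = 9.09e-05) and not called in WT (log2 fold change 0.16 ± 0.10 (SE), adjusted p = 0.181), and the test of that difference was not passed (0.59 ± 0.13 (SE) on the log2 scale, adjusted p = 0.145). Ccn2 was the one gene called lower in WT, from 4.4, 2.91 and 3.51 TPM at RT to 1.01, 1.48 and 1.05 TPM at TN, without overlap (log2 fold change -1.07 ± 0.21 (SE), adjusted p = 0.00186). In Txnip-/- its values 4.45, 3.24 and 2.05 TPM at RT and 1.43, 2.67 and 1.78 TPM at TN overlapped, and the difference was not called (log2 fold change -0.50 ± 0.21 (SE), adjusted p = 0.0664) unless RT Txnip-/- replicate 3 or TN Txnip-/- replicate 2 was left out (adjusted p = 0.0136 and 0.0301). Eln also lay lower at TN in WT without overlap and was not called (log2 fold change -0.48 ± 0.20 (SE), adjusted p = 0.0618).

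Postn, Thbs1, Fbln1, Eln, Lox, Acta2 and Pi16 were called in neither genotype with all libraries in the fit, and for 5 of these 7 a call appeared with 1 library of that genotype left out. In WT, Pi16 was called higher without RT WT replicate 1 (adjusted p = 0.0385) or TN WT replicate 2 (adjusted p = 0.00323), Eln lower without RT WT replicate 1 (adjusted p = 0.0292) and Thbs1 lower without RT WT replicate 3 (adjusted p = 0.0424). In Txnip-/-, Lox was called higher without RT Txnip-/- replicate 1 (adjusted p = 0.0474) and Postn without RT Txnip-/- replicate 3 (adjusted p = 0.00895). Of the genes called in Txnip-/- alone, Ly6a was called higher in WT without TN WT replicate 1 (adjusted p = 0.022) and Loxl1 lower in WT without RT WT replicate 3 (adjusted p = 0.0223).

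Most tested genes of the table were slightly higher at TN, and centring each library on its median moved the median of all genes from 0.18 to 0.00 in WT and from 0.15 to -0.04 in Txnip-/-. Relative to that shift, 19 genes of the set were called in WT, 16 higher and 3 lower (Ccn2, Eln and Loxl1), and 23 in Txnip-/-, 22 higher and 1 lower (Ccn2). The calls lost under centring were Tnxb, Thbs2, Mgp, Fbln2, Mfap5 and Loxl2 in WT and Ly6a, Mgp, Fbln5 and Loxl1 in Txnip-/-, so that of the 4 genes called in Txnip-/- alone Sparc was still called. Centring also changed the split over all genes, from 3919 higher of 4717 called to 1926 of 3767 in WT, and from 3858 of 4891 to 2294 of 4729 in Txnip-/-. With any one of the 6 libraries of the same genotype left out, 21 of the 23 calls in WT and all 26 in Txnip-/- held. The exceptions were Tnxb, lost without RT WT replicate 1 or 3 or TN WT replicate 1 or 2 with an adjusted p of up to 0.134, and Mfap5, lost without TN WT replicate 1 (adjusted p = 0.0508). Fibroblast and macrophage markers were called higher at TN in both genotypes, 6 of 6 and 9 of 10 in WT and 6 of 6 and 10 of 10 in Txnip-/-, brown adipocyte markers were lower, 5 of 9 and 7 of 9, and 6 of 6 skeletal muscle markers were lower in Txnip-/-, while none of 6 was called in WT. Endothelial cells also carry Cd34, and their markers were called higher too, 5 of 7 in WT and 7 of 7 in Txnip-/-, with sums at TN of 430.2 to 514 and 467 to 519.6 TPM against 339 to 349 and 269 to 324 TPM at RT. Of 5 lymphocyte markers tested 4 and 5 were higher, of 9 pericyte and smooth muscle markers 2 and 1, with 1 lower in WT, and of 5 Schwann cell markers 0 and 2. Over all genes tested, 31.4% in WT and 30.9% in Txnip-/- were called higher at TN, and 6.39% and 8.27% lower. The part of these cell types in the temperature results was not tested.

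**Figure D5:**
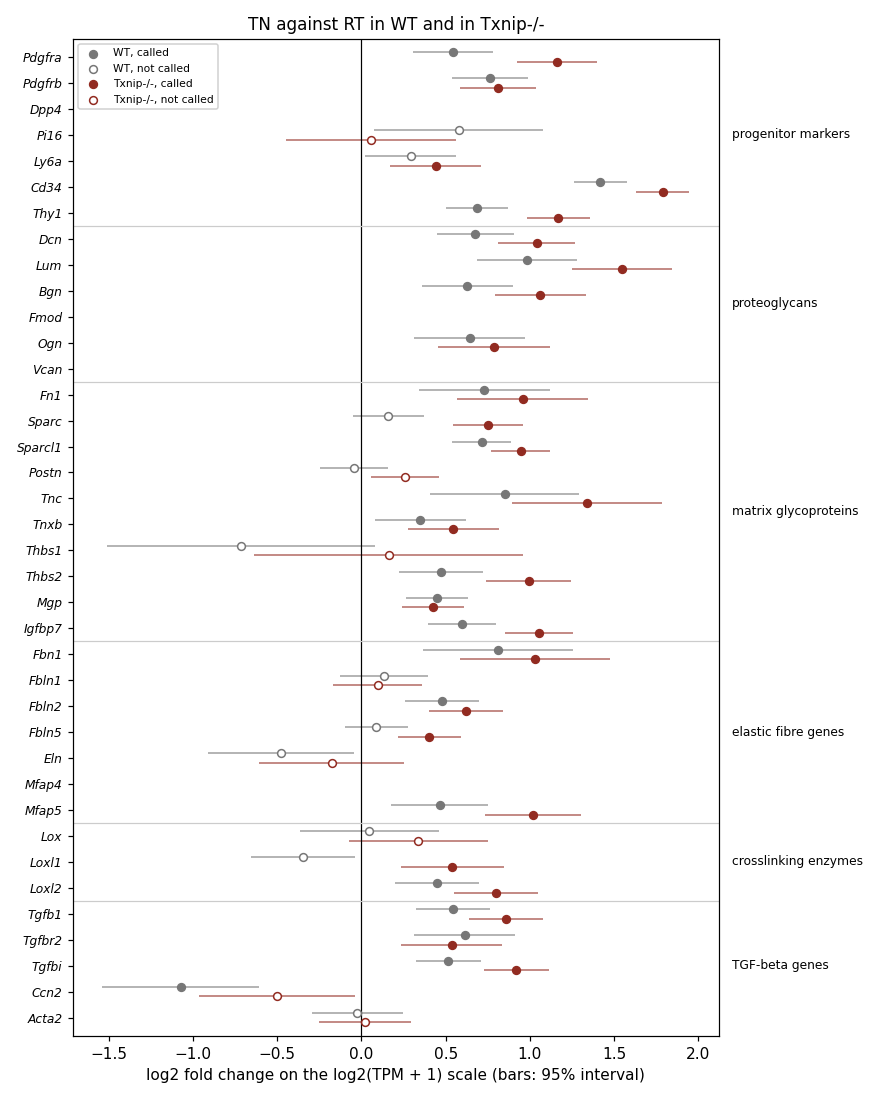
Log2 fold change of TN over RT for each gene, on the log2(TPM + 1) scale, in WT (grey) and in Txnip-/- (red), with 95% intervals; filled points were called. Cd34 lies farthest to the right in both genotypes and Ccn2 farthest to the left.

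Whether the genotype difference itself changed with temperature was tested as an interaction over all 12 libraries. None of the 34 genes was called by limma at an adjusted p below 0.05, against 0.00801% of all genes tested, and 16 of the 34 had an unadjusted p under 0.05, against 12.6% of all genes. The difference of log2 fold changes, TN minus RT, was positive for 30 of 34, against 5743 of all 12486 genes. Its median was 0.31, against -0.02 over all genes. Loxl1 had the largest value, 0.89 ± 0.20 (SE), with an adjusted p of 0.145 and a 95% interval of 0.45 to 1.32 before adjustment. By this test, a gene called at TN and not at RT was not shown to differ between the temperatures.

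Further genes of the same pathways were taken from 2 lists. Of 25 genes tested that encode TGF-beta ligands, receptors, SMAD proteins, latency proteins and targets beyond the set, 1 was higher in TN Txnip-/- and none was lower, where 6.49% of all genes tested were called higher and 2.17% lower. The share of this list was thus near that of all genes, and its median was 0.05 on the log2 scale. That gene was Bmp1, the procollagen C-proteinase (log2 fold change 0.39 ± 0.09 (SE), adjusted p = 0.033). Of 30 other non-collagen matrix genes tested, which include Dpt and Pcolce of the fibroblast list, 14 were higher and 1 was lower, against the same 6.49% and 2.17%, with a median of 0.34. The largest of these were Fbln7, fibulin 7 (log2 fold change 1.03 ± 0.10 (SE), adjusted p = 0.00297), and Mfap2, a microfibril glycoprotein (log2 fold change 0.78 ± 0.14 (SE), adjusted p = 0.015), and the lower gene was Agrn, which encodes the heparan sulfate proteoglycan agrin (log2 fold change -0.46 ± 0.08 (SE), adjusted p = 0.0153). At RT no gene of either list was called by limma, and 5 of 24 and 7 of 30 had an unadjusted p under 0.05, against 16.0% of all genes.

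Exons of 15 of the 38 genes overlap those of a gene on the opposite strand, among them Pdgfra, Cd34, Igfbp7, Eln and Loxl2, and whether the counting used strand is not given in the sources used here, so reads of such pairs may not be told apart.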

How the data were processed

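Interscapular BAT RNA was sequenced as single-end reads of 75 bases in 12 libraries, 3 for each of 4 groups. Per the file headers and the methods of the study, the authors aligned reads to mm10 with STAR 2.7.5a, counted exons with HOMER 4.11.1 and kept 1 transcript per gene. They deposited TPM for all libraries and, for each temperature, log2-scale values normalized over its 6 libraries by a transform that the headers do not name. Listed TPM sum to 55.4 to 57.6% of the full scale. The deposited tables per temperature also hold the authors' own fold changes and p-values, which were not used.

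The files hold no counts, so limma 3.58.1 (R 4.3.3; lmFit, eBayes with trend) was run on log2(TPM + 1) of genes with a mean of at least 1 TPM, with Benjamini-Hochberg adjustment. Genotypes were compared on the 6 libraries of a temperature, temperatures and the interaction on all 12. Calls needed a fold change above 1.25 or below 0.8 and an adjusted p below 0.05. The fits were also run on simulated data, with an outcome that is not given here. Alternatives were a pseudocount of 0.1, no filter, upper-quartile scaling, median centring, a replicate block, 1 library left out, 1 fit of all 12 libraries, the authors' log2-scale values and adjusted p alone.

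The genes and lists were chosen with earlier results of these data known. Values per library are given for genes called between genotypes and for the most abundant gene of each subgroup, and from each pathway list the called genes with the 2 largest changes of each sign are named. For 13 genes at RT and 12 at TN the log2-scale tables list another transcript than the TPM table.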

Additional observations from a re-analysis of the deposited data

How the results depend on the processing

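Calls at TN rest on 3 libraries a group, and TPM hides the reads behind low genes. The count of 16 genes higher in TN Txnip-/- was 16 with a pseudocount of 0.1, 16 with upper-quartile scaling, 15 with median centring, 15 with the authors' log-scale values, 11 without a filter, where more genes were tested, and 19 in 1 fit of all 12 libraries. Over all genes tested, 836 of 12891 were called higher in the main fit, 804 with a pseudocount of 0.1 and 816 with upper-quartile scaling. Median centring gave 728 and the authors' values 609. The number was 483 of 22494 without a filter and 819 of 12486 in the fit of all libraries. With 1 library left out the count of the set ranged from 10 to 16, and the share of all genes called higher from 2.79% to 5.64%. No gene of the set was called at RT, except 1 with the authors' log-scale values, where 67 of all 11980 genes were called higher. Whether replicate numbers pair the samples is not stated in the labels. Correlations of deviations for numbers 1, 2 and 3 were 0.3, -0.013 and 0.216 at RT and 0.039, 0.023 and -0.029 at TN. With 3 libraries a group such values cannot exclude pairing. With a replicate block 15 genes were called at TN and 0 at RT, where 728 of all 12891 genes tested at TN and 48 of 11980 at RT were called higher.

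Median centring lowered the temperature medians, by its construction, to 0.60 for all genes of the set in Txnip-/-. In WT and Txnip-/- they became 0.48 and 0.86 for proteoglycans, 0.28 and 0.66 for glycoproteins, 0.12 and 0.32 for elastic fibre genes, -0.14 and 0.35 for crosslinking enzymes, where the WT sign turned, and 0.33 and 0.35 for TGF-beta genes. The elastic fibre median in WT was 0.13 without a filter, and at TN between genotypes it was 0.77 with a pseudocount of 0.1 and 0.29 with the authors' values, and the TGF-beta median 0.22 with those values. The proteoglycan median at TN was 0.67 in the fit of all libraries. The cause of the changes other than under centring was not tested.

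Signs of genes that were not called turned as follows. Cd34 between genotypes at RT went to -0.0088 with upper-quartile scaling, -0.014 with centring and -0.0203 with the authors' values, and Pdgfrb at TN to -0.013 with centring. Over temperature, centring gave -0.023 for Sparc, -0.049 for Fbln1, -0.095 for Fbln5 and -0.14 for Lox in WT, and -0.13 for Pi16, -0.028 for Thbs1, -0.093 for Fbln1 and -0.17 for Acta2 in Txnip-/-. Upper-quartile scaling gave -0.045 for Lox in WT and -0.012 for Pi16 and -0.057 for Acta2 in Txnip-/-.

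With 1 library left out, medians ranged from 0.38 to 0.63 for proteoglycans and 0.45 to 0.71 for elastic fibre genes at TN between genotypes, 0.11 to 0.35 for elastic fibre genes in the interaction, -0.15 to 0.17 for crosslinking enzymes over temperature in WT, and 0.056 to 0.25 for TGF-beta genes at RT and 0.38 to 0.72 over temperature in Txnip-/-. Between genotypes at RT, log2 fold changes ranged from -0.11 to 0.048 for Pdgfrb, -0.021 to 0.036 for Cd34, -0.099 to 0.026 for Sparc, -0.31 to 0.0037 for Tnc, -0.095 to 0.069 for Tnxb, -0.0876 to 0.07 for Igfbp7, -0.003 to 0.29 for Fbn1, -0.0089 to 0.127 for Tgfb1 and -0.34 to 0.074 for Ccn2, and for Pdgfrb at TN from -0.0699 to 0.12. Over temperature they ranged in WT from -0.13 to 0.024 for Postn, -0.15 to 0.17 for Lox and -0.11 to 0.052 for Acta2, and in Txnip-/- from -0.019 to 0.15 for Pi16, -0.032 to 0.54 for Thbs1 and -0.11 to 0.12 for Acta2.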
